A study of Mus musculus with 8 samples.

Results

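The miR-200 family consists of 5 mature miRNAs made from 2 clusters of hairpins: mmu-miR-200a-3p, mmu-miR-200b-3p and mmu-miR-429-3p on chromosome 4, and mmu-miR-200c-3p and mmu-miR-141-3p on chromosome 6, written below without the species prefix mmu. They were taken by name from the 1881 miRNAs on a mouse array, and all 5 are among the 222 miRNAs bright enough to test. The skin came from male mice, all of them Ncstn flx/flx; Krt14 CreER+/-, whichever group they belonged to. Krt14 CreER is a Cre recombinase switched on by tamoxifen and expressed from the Krt14 promoter, which basal keratinocytes use, so cells that do not use this promoter are not meant to lose Ncstn. Nicastrin, the product of Ncstn, belongs to γ-secretase, the protease that cuts Notch receptors within the membrane. For the NcstnΔKC group (4 samples), tamoxifen gavage began at 8 weeks of age with daily doses of 20 mg/kg for 5 days and was then repeated at intervals of 10 days. The normal group (4 samples) was given corn oil instead, so tamoxifen exposure and loss of Ncstn cannot be told apart. Skin was taken at 16 weeks of age, and the array does not measure Ncstn mRNA, so the deletion itself could not be checked. The labels do not tie samples to individual mice, and the p-values therefore reflect only sample-to-sample spread, part of which may be technical. Arrays are called normal 1 to 4 and NcstnΔKC 1 to 4.

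The family is known as a guardian of the epithelial state. Its members repress the mRNAs of ZEB1 and ZEB2, transcription factors that silence E-cadherin and other epithelial genes, and ZEB factors in turn repress the promoters of both miR-200 clusters. In skin the family is expressed in the epidermis.

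The family is shown by sequence because cluster and target recognition cut across each other. The mature sequences from RefSeq (GRCm38.p6) are given 5′ to 3′, with the seed, bases 2 to 8, which governs target recognition, in capitals.
miR-200a-3p: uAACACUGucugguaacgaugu
miR-141-3p: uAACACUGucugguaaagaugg
miR-200b-3p: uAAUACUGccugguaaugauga
miR-429-3p: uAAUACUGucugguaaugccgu
miR-200c-3p: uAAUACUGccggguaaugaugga
The seeds AACACUG (2 members) and AAUACUG (3 members) differ by 1 base, and no other of the 1679 mature sequences in the RefSeq table has either seed. Each seed occurs in both clusters. miR-200a-3p and miR-141-3p share a seed and differ at 2 of 22 bases, and miR-200b-3p and miR-200c-3p likewise share a seed and differ at 2 of the 22 bases compared, although each of these pairs is made from 2 chromosomes.

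All 5 hairpins lie on the minus strand. In GRCm38.p6 the mature miR-429-3p is at chr4:156053916-156053937, miR-200a-3p at chr4:156054911-156054932 and miR-200b-3p at chr4:156055685-156055706. Their hairpins are 908 and 695 bases apart and lie within the span of the long non-coding RNA gene Gm13648, between Ttll10 and Gm52714. miR-141-3p is at chr6:124717917-124717938 and miR-200c-3p at chr6:124718324-124718346, with hairpins 336 bases apart that lie in no annotated host gene, between Phb2 and Ptpn6.

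The promoter of Gm13648 is printed because the 3 miRNAs within that gene moved together. It covers 250 bases before to 50 bases after the annotated start (RefSeq, GRCm38.p6, chr4:156059753-156060052, minus strand), with the E-box CACCTG, the motif bound by ZEB and SNAIL repressors, in capitals.
Gm13648: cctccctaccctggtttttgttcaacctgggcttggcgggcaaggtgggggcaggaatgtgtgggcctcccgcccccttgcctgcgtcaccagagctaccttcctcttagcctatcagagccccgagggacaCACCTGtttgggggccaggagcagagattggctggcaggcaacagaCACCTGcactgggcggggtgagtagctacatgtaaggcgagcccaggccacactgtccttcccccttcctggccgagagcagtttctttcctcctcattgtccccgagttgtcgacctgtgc
A search for CACCTG and its reverse complement CAGGTG on this strand found 2 matches, both CACCTG, beginning at positions -118 and -72. Of 32851 promoters of this length, 20.2% hold at least 1 match and 2.88% hold 2 or more. A match describes the letters only. No promoter of Mir200c or Mir141 was searched, so the matches make no comparison between the clusters.

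Each member was read by 2 probes, each printed at 15 spots per array. The longer probe of each is shown, 5′ to 3′, because near-identical members can share signal. Capitals mark the bases that do not pair with the same-seed member of the other cluster, which is miR-141-3p for the first probe, miR-200c-3p for the next 2, miR-200b-3p for the miR-200c-3p probe and miR-200a-3p for the last.
miR-200a-3p probe: AcatcGttaccagacagt
miR-200b-3p probe: TcatcattaccAggcag
miR-429-3p probe: AcGGcattaccAgAcagta
miR-200c-3p probe: TCcatcattaccCggc
miR-141-3p probe: CcatcTttaccagacag
Every one of the 10 probes matched its own RefSeq sequence over its whole length. Against its nearest relative among the other members, a probe had 2 unpaired bases (miR-200a-3p, miR-200b-3p and miR-141-3p) or at least 3 (miR-429-3p and miR-200c-3p), so how much of a member's signal came from a relative is uncertain. Brightness depends on the probe, and levels were therefore compared between arrays and not between miRNAs.

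In NcstnΔKC skin the 3 members of the chromosome 4 cluster were lower and the 2 members of the chromosome 6 cluster did not pass the test, although both clusters carry both seeds; scaling to a percentile over all probes turned the chromosome 4 differences above 0, with none passing. miR-429-3p fell 1.76-fold, miR-200a-3p 1.67-fold and miR-200b-3p 1.50-fold. miR-200c-3p differed by 0.12 and miR-141-3p by 0.30 on the log2 scale. Within each array, the chromosome 4 miRNAs fell relative to the chromosome 6 miRNAs by 1.63-fold to 2.16-fold in the 6 pairs that can be formed. The groups did not overlap in any of the 6 pairs, which share members and are not independent. Of the ratios between any 2 tested miRNAs, 34.9% showed no overlap, and 27.9% of all tested miRNAs passed as lower. In whole skin, fewer epithelial cells and less miRNA per cell cannot be told apart.

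The normal arrays detected 234 to 273 miRNAs each and the NcstnΔKC arrays 198 to 237. Of the 222 tested, 95 (42.8%) passed an adjusted p of 0.05 (limma, Benjamini-Hochberg), 62 lower and 33 higher, and the median log2 difference was -0.23. The split of lower to higher calls depended on the scaling: it was 0 to 12 with the percentile over all probes, 33 to 19 with the scanner software's totals, 33 to 39 with quantile normalization, 30 to 41 with cyclic loess, 28 to 36 with normexp background correction, 36 to 36 in the series matrix values, 101 to 24 without scaling and 91 to 18 with spike-in scaling. All 8 arrays lie on 1 slide, the normal ones in row 2 and the NcstnΔKC ones in row 1, so the group difference cannot be told apart from one of row. Keratinocyte miRNAs miR-203-3p and miR-205-5p were detected on all 8 arrays.

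Levels are given as scaled log2 signals, where 0 is the 75th percentile of the array's probes that were detected on all arrays. miR-429-3p, which carries the seed AAUACUG, had levels of 0.27, 0.11, 0.38 and 0.58 in normal 1 to 4. In NcstnΔKC 1 to 4 it had -0.63, -0.23, -0.47 and -0.59, all below every normal array. The log2 difference was -0.81 ± 0.16 (SE, n = 4 in each group, limma adjusted p = 0.00466), and -0.58 relative to the median of tested miRNAs.

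miR-200a-3p, whose seed is AACACUG, had levels of 0.18, -0.13, 0.07 and 0.53 in normal 1 to 4. In NcstnΔKC 1 to 4 the levels were -0.67, -0.34, -0.57 and -0.73, again without overlap. Normal 2 and NcstnΔKC 2 were the nearest arrays of the 2 groups. The log2 difference was -0.74 ± 0.18 (SE, n = 4 in each group, limma adjusted p = 0.0120), and -0.50 relative to the median of tested miRNAs.

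miR-200b-3p, the same-cluster member that is closest to miR-200c-3p in sequence, had levels of 0.82, 0.61, 0.87 and 1.10 in normal 1 to 4. In NcstnΔKC 1 to 4 the levels were 0.13, 0.49, 0.29 and 0.16, and the groups did not overlap, with 0.61 against 0.49 at the nearest point. The log2 difference was -0.58 ± 0.16 (SE, n = 4 in each group, limma adjusted p = 0.0191), and -0.35 relative to the median of tested miRNAs. This call was lost without normal 4 (limma adjusted p = 0.0515) and without NcstnΔKC 3 (0.0547).

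miR-200c-3p had levels of 0.63, 0.18, 0.74 and 0.65 in normal 1 to 4. In NcstnΔKC 1 to 4 they were 0.28, 0.96, 0.75 and 0.69. The groups overlapped, with 1 low array in each (normal 2 and NcstnΔKC 1). The log2 difference was 0.12 ± 0.19 (limma adjusted p = 0.618), with a 95% confidence interval from -0.32 to 0.56. Without normal 2 the difference was -0.0030.

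miR-141-3p, its partner in the chromosome 6 cluster, had levels of -0.94, -0.86, -0.83 and -1.20 in normal 1 to 4. In NcstnΔKC 1 to 4 they were -0.89, -0.62, -0.55 and -0.58. The groups overlapped only through NcstnΔKC 1. The log2 difference was 0.30 ± 0.15 (limma adjusted p = 0.138), with a 95% confidence interval from -0.04 to 0.63. It passed as higher in the series matrix values (log2 difference 0.52, limma adjusted p = 0.0391) and with array weights (0.39, 0.0115).

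**Figure D1:**
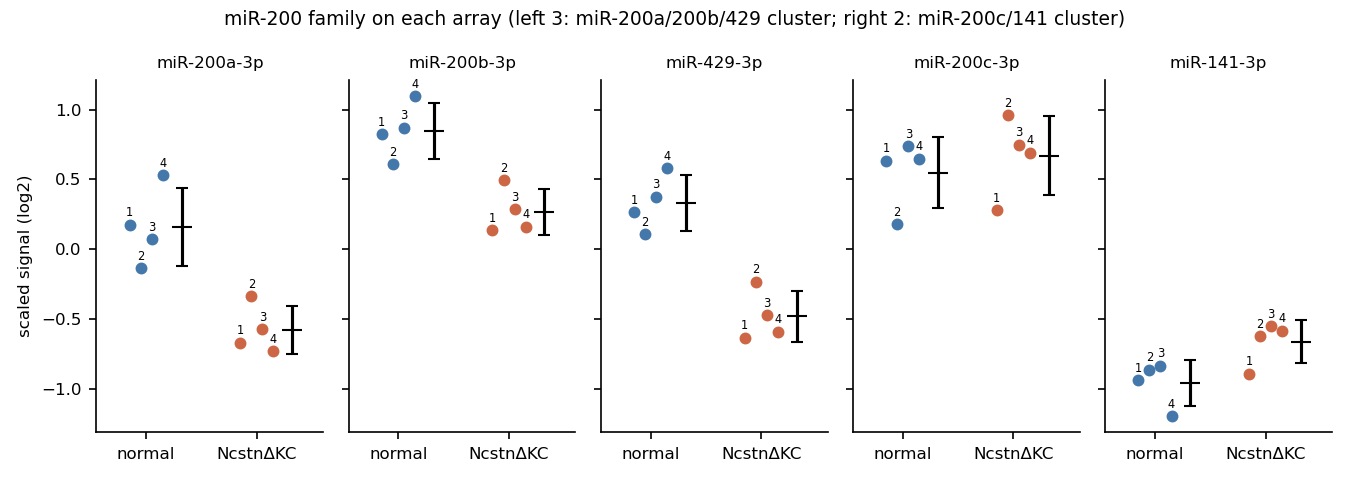
Scaled log2 signal (vertical axis) of each family member on each array, by group; points are arrays numbered by replicate, and bars are the mean ± SD of 4 arrays. The groups separate in the 3 members of the chromosome 4 cluster (miR-200a-3p, miR-200b-3p, miR-429-3p) and overlap in miR-200c-3p and miR-141-3p.

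In all, 3 of 5 members passed as lower and 0 as higher, where 27.9% of all tested miRNAs passed as lower and 14.9% as higher. With no filter on dim miRNAs (1881 tested) 0 members passed, with limma adjusted p of 0.136 for miR-200a-3p, 0.139 for miR-200b-3p and 0.0612 for miR-429-3p. The groups did not overlap in 3 members, all lower, where 36.9% of tested miRNAs showed no overlap, 23.4% lower and 13.5% higher. The median log2 difference of the 5 members was -0.58, beside -0.23 for all tested miRNAs. The falls were of moderate size: 20.7% of tested miRNAs had a difference as low as that of miR-429-3p or lower, and 32.0% one as low as that of miR-200b-3p or lower.

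**Figure D2:**
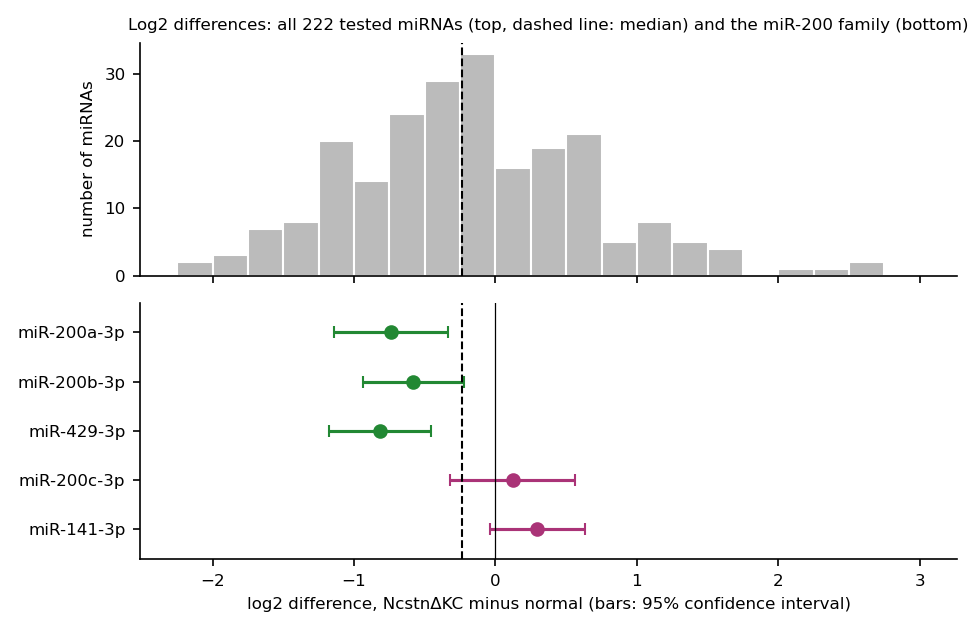
Log2 differences, NcstnΔKC minus normal, of all 222 tested miRNAs as a histogram (top) and of the 5 family members with 95% confidence intervals (bottom; green, chromosome 4 cluster; purple, chromosome 6 cluster). The chromosome 4 members lie below the median of -0.23 (dashed line) and the chromosome 6 members above it.

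The 2 probes of each member gave the same direction. The sequence of the shorter probe is contained in that of the longer, so the 2 are not independent and their agreement is no separate support. The 18-base and 19-base probes of miR-429-3p differed between groups by -0.84 and -0.79 on the log2 scale, the 17-base and 18-base probes of miR-200a-3p by -0.78 and -0.72, and the 16-base and 17-base probes of miR-200b-3p by -0.52 and -0.60. None of these 6 probes had overlapping groups. Both probes of miR-200c-3p overlapped between groups, with differences of 0.13 (15 bases) and 0.12 (16 bases).

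For miR-141-3p the 16-base probe differed by 0.40, without overlap, and the 17-base probe by 0.27, with overlap. The 16-base probe was the dimmest of the 10, with mean processed intensities of 115 to 168. Over the 10 probes and 8 arrays, intensities ran from 115 to 2226, at least 11 of 15 spots were used, all spots were well above background and 0 were saturated. The median coefficient of variation between spots of a probe on an array was 5.65%.

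**Figure D3:**
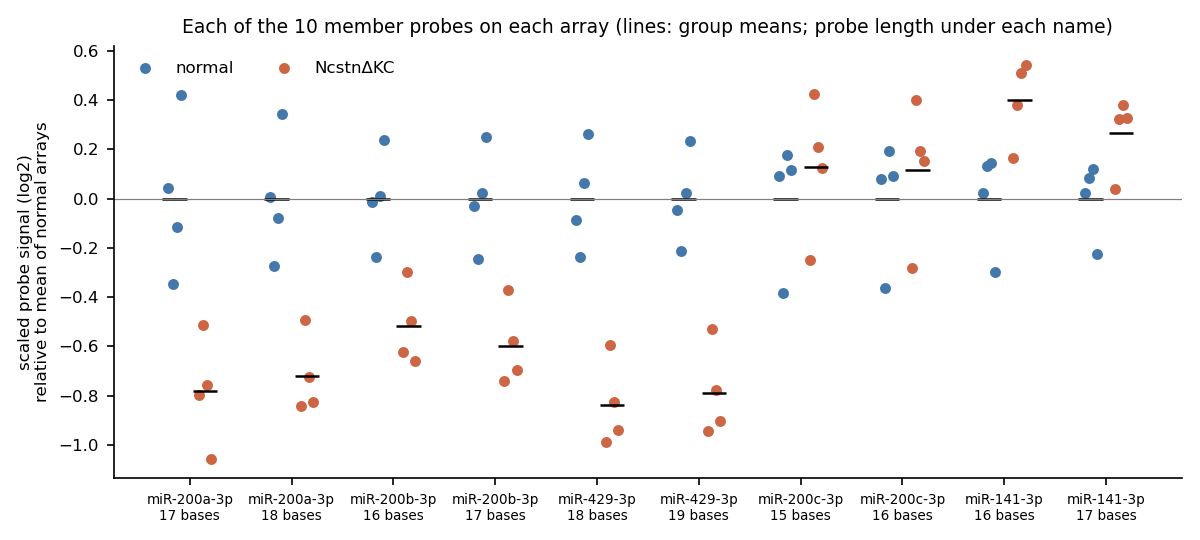
Scaled log2 signal of each of the 10 member probes on each array, relative to the probe's mean over the 4 normal arrays; points are arrays, short lines are group means, and the probe's length stands under its name. Both probes of a member lie on the same side of 0 in NcstnΔKC skin on average, below it for the chromosome 4 members and above it for the chromosome 6 members under this scaling; with the percentile over all probes all 5 members lie above 0, and with spike-in scaling all 5 below.

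Whether the clusters changed by different amounts was tested directly, with the log2 ratio of a chromosome 4 to a chromosome 6 member on each array. A factor common to an array cancels in such a ratio, so no scaling by a single factor changes it. Each ratio is given relative to its mean over the normal arrays, since its own height depends on the probes. The 6 ratios share members and are not independent, and the directions of the members were known when the ratios were chosen.

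The ratio of miR-200b-3p to miR-200c-3p compares the same seed across the clusters. Normal 1 to 4 had values of -0.11, 0.13, -0.16 and 0.15. NcstnΔKC 1 to 4 had -0.45, -0.76, -0.76 and -0.83. NcstnΔKC 1 was the nearest to the normal arrays, and the groups did not overlap. The difference was -0.70 ± 0.12 (SE, n = 4 in each group), or 1.63-fold, with an exact two-sided permutation p of 0.0286, the smallest that the 70 labelings allow, and 0.0286 adjusted over the 6 ratios.

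The ratio of miR-200a-3p to miR-141-3p compares the other seed across the clusters. Its values were -0.0061, -0.39, -0.21 and 0.61 for normal 1 to 4, against -0.90, -0.83, -1.14 and -1.26 for NcstnΔKC 1 to 4. Normal 4 stood highest, and the groups did not overlap, with -0.39 (normal 2) against -0.83 (NcstnΔKC 2) at the nearest point. The difference was -1.03 ± 0.24 (SE, n = 4 in each group, exact permutation p = 0.0286, adjusted p = 0.0286), or 2.05-fold.

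The ratio of miR-429-3p to miR-200c-3p, also of a common seed, differed by -0.93 ± 0.12 (exact permutation p = 0.0286, adjusted p = 0.0286). The ratios across both cluster and seed differed by -0.86 ± 0.15 (miR-200a-3p to miR-200c-3p), -0.88 ± 0.19 (miR-200b-3p to miR-141-3p) and -1.11 ± 0.19 (miR-429-3p to miR-141-3p), each with an exact permutation p of 0.0286, adjusted p = 0.0286. The groups did not overlap in 6 of 6 ratios, where 34.9% of the 24531 ratios between any 2 tested miRNAs showed no overlap. All 6 kept their direction, no overlap and that p in the 7 alternatives that could move them: quantile normalization, cyclic loess, normexp background correction, outlier spots kept, averaging a member's probes on the log2 scale, taking its brightest probe alone and the series matrix values.

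As a description, the mean of the 3 chromosome 4 members minus the mean of the 2 chromosome 6 members was -0.08, -0.12, -0.16 and 0.36 in normal 1 to 4, relative to the normal mean. The NcstnΔKC arrays ran from -1.09 to -0.74. Every NcstnΔKC array thus lay below every normal array, by a mean of 0.92 on the log2 scale, of which the chromosome 4 members gave -0.71 and the chromosome 6 members 0.21 under this scaling.

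**Figure D4:**
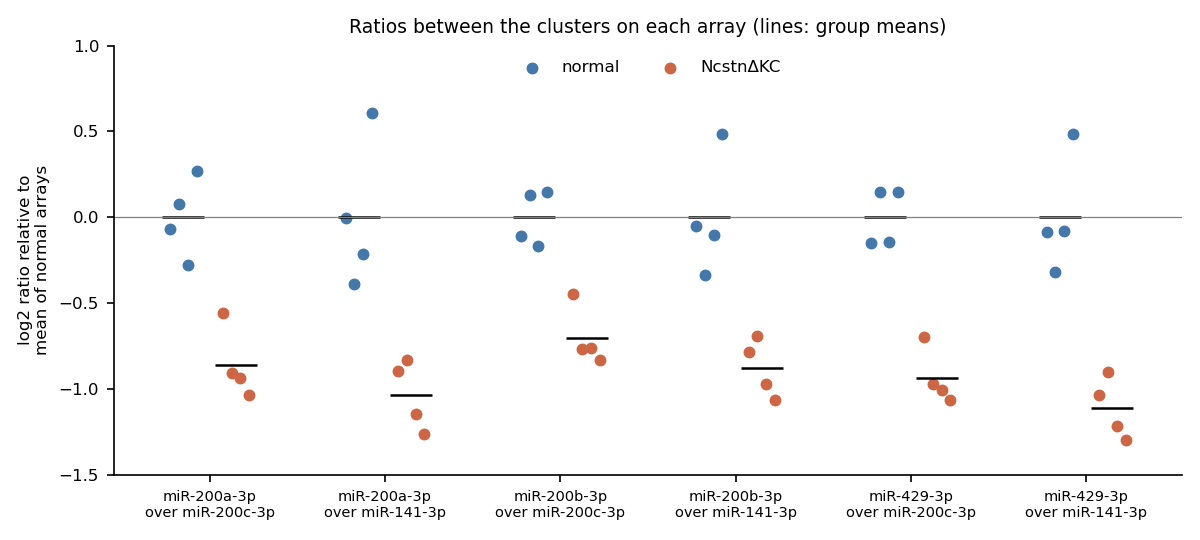
Log2 ratio of each chromosome 4 member to each chromosome 6 member on each array (vertical axis, relative to the mean of the 4 normal arrays); points are arrays and short lines group means. In all 6 ratios the NcstnΔKC arrays lie below the normal arrays.

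Where 0 lies depends on the scaling, and the distance between the clusters much less. With spike-in scaling, which uses 4 control RNAs, miR-429-3p differed by -1.12, miR-200a-3p by -1.05 and miR-200b-3p by -0.89, and miR-200c-3p and miR-141-3p by -0.19 and -0.012. With the 75th percentile over all probes, all 5 members were higher in NcstnΔKC skin, from 0.056 (miR-429-3p) to 1.17 (miR-141-3p), and 0 passed. That percentile was 0.826 to 6.54 intensity units, and it moved the median of all tested miRNAs to 0.64. The percentile over detected probes was 1215 to 1314 on normal and 922 to 1160 on NcstnΔKC arrays, without overlap between groups. A single factor per array leaves a member's distance from the median of tested miRNAs as it was. The distance was compared in 5 settings where it could change: quantile normalization, cyclic loess, normexp, the scanner software's totals and the series matrix values. In these the 3 chromosome 4 members were below the median and the 2 chromosome 6 members above it. It was not compared under other probe summaries or with outlier spots kept, where it could also change.

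**Figure D5:**
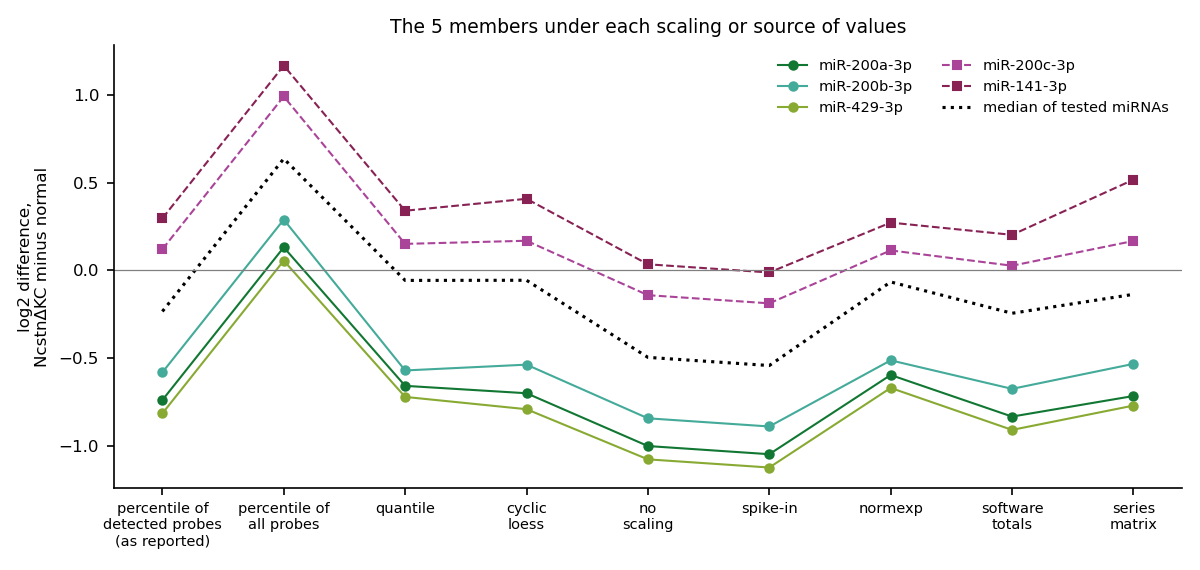
Log2 difference of each member (vertical axis) under each scaling, background correction or source of values (horizontal axis, in no order), with the median of all tested miRNAs dotted; lines only join the values of 1 miRNA. The chromosome 4 members lie below the dotted line and the chromosome 6 members above it, at distances that are identical by construction in the settings that use a single factor per array.

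Within the chromosome 4 cluster, some ratios between members also differed between groups, though not under every processing. These ratios were picked out after the data were seen, so their p-values only describe them. Of the ratios between any 2 tested miRNAs, 34.9% showed no overlap. The ratio of miR-200b-3p to miR-429-3p, relative to its normal mean, ran from -0.022 to 0.039 on the normal arrays. NcstnΔKC 1 to 4 had values of 0.25, 0.21, 0.24 and 0.23. Arrays of a group lay close together and the groups did not overlap, with a difference of 0.23 ± 0.02 (SE, n = 4 in each group, exact permutation p = 0.0286, adjusted p = 0.0357 over all 10 pairs of members). With quantile normalization it was 0.15 (exact permutation p = 0.0857).

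The ratio of miR-200a-3p to miR-200b-3p differed by -0.16 ± 0.05 (n = 4 in each group, exact permutation p = 0.0286, adjusted p = 0.0357). It was not separated with quantile normalization (-0.09, exact permutation p = 0.429), cyclic loess (-0.16, 0.0571), normexp (-0.08, 0.143), the brightest probe (-0.12, 0.0571) or the series matrix values (-0.18, 0.114). miR-200a-3p to miR-429-3p differed by 0.08 ± 0.06 (n = 4 in each group, exact permutation p = 0.343), and passed with the brightest probe alone (0.12, exact permutation p = 0.0286). miR-200c-3p to miR-141-3p differed by -0.18 ± 0.19 (n = 4 in each group, exact permutation p = 0.371).

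The chromosome 4 members also rose and fell together among arrays of the same group. Normal 4 was the highest and normal 2 the lowest of the normal arrays for all 3, and NcstnΔKC 2 the highest of the NcstnΔKC arrays. After group means were subtracted, Pearson's r over the 8 arrays was 0.99 between miR-200b-3p and miR-429-3p, 0.96 between miR-200a-3p and miR-200b-3p and 0.92 between miR-200a-3p and miR-429-3p. These values describe likeness and were not tested, and all miRNAs of an array share its scaling.

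Of the other 221 tested miRNAs, the 2 most like each chromosome 4 member over the 8 arrays were its cluster partners, and the next was let-7c-5p (r = 0.96 to 0.98). That r includes the difference between groups. After group means were subtracted, miR-429-3p was closer to miR-182-5p (r = 0.95) and let-7a-5p (0.93) than to its partner miR-200a-3p (0.92). The chromosome 6 members were less alike. r between miR-200c-3p and miR-141-3p was 0.38 over the 8 arrays and 0.30 after group means were subtracted. By likeness to miR-200c-3p over the 8 arrays, miR-141-3p ranked 33 among the other 221.

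Over the 8 arrays the miRNAs most like miR-200c-3p were miR-23b-3p (r = 0.90), let-7i-5p (0.81) and let-7f-5p (0.79). Those most like miR-141-3p were miR-19b-3p (0.84), miR-362-3p (0.84) and miR-1949 (0.84). After group means were subtracted, miR-200c-3p had r of 0.79 with miR-200b-3p, 0.79 with miR-429-3p and 0.63 with miR-200a-3p. By likeness to these members it ranked only 24, 26 and 34 among the other 221, so this likeness was not particular to the family. miR-141-3p had r of -0.26, -0.22 and -0.49 with the same members.

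The opposite arms of the 5 hairpins, miR-200a-5p, miR-200b-5p, miR-429-5p, miR-200c-5p and miR-141-5p, were detected on none of the 8 arrays, so the results rest on 1 arm of each hairpin.

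Of 10 other epithelial miRNAs listed, 6 were tested, of which 3 passed as lower, 0 as higher and 3 did not pass. Their median log2 difference was -0.38, beside -0.23 for all tested miRNAs, of which 27.9% passed as lower and 14.9% as higher. miR-203-3p, which drives keratinocytes out of the cell cycle, differed by -0.68 ± 0.17 (limma adjusted p = 0.0139) and its other arm miR-203-5p by -0.83 ± 0.21 (0.0139). miR-183-5p, of a cluster found in sensory and epithelial cells, differed by -0.58 ± 0.17 (limma adjusted p = 0.0266), while its cluster partners miR-96-5p and miR-182-5p differed by -0.17 (0.344) and 0.17 (0.338). miR-205-5p, a marker of basal keratinocytes, differed by 0.47 ± 0.17 (limma adjusted p = 0.0518). miR-31-5p (detected on 1 normal and 3 NcstnΔKC arrays) and miR-31-3p were too dim to test, and miR-205-3p and miR-375-3p were detected on no array.

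Some markers of other cell types also differed between the same groups, and their part in the results was not tested. The counts below stand beside 27.9% of all tested miRNAs passing as lower and 14.9% as higher. The summed scaled signal of 5 leukocyte miRNAs was 1.67 to 2.31 on normal and 2.64 to 8.33 on NcstnΔKC arrays, with 2 of 4 tested higher (miR-142a-3p and miR-155-5p). miR-155-5p and miR-150-5p, each detected on 3 normal and 4 NcstnΔKC arrays, entered the test through the NcstnΔKC group alone. The brightest of the 4 tested, miR-223-3p, overlapped between groups and did not pass (limma adjusted p = 0.0644). For 5 fibroblast and smooth muscle miRNAs the sum was 5.44 to 7.63 on normal and 9.01 to 14.0 on NcstnΔKC arrays, with 3 of 5 higher and 1 lower. This sum hides opposite directions. On the log2 scale miR-199a-3p (0.69), miR-199a-5p (1.06) and miR-214-3p (1.21) were higher. By contrast, miR-145a-5p (-1.14) was lower and miR-143-3p (-0.52) did not pass. miR-145a-5p was detected on 4 normal but only 1 NcstnΔKC array, so it entered the test through the normal group alone. Its NcstnΔKC mean of -4.53 was near the floor of -4.97, so its size and its call carry little weight. For 4 striated muscle miRNAs the sum was 17.5 to 84.1 on normal and 6.41 to 38.3 on NcstnΔKC arrays, with 1 of 4 lower. Their log2 differences ran from -1.83 to -1.03, with overlap between groups in each. The keratinocyte miRNAs miR-203-3p and miR-205-5p differed in opposite directions, by -0.68 and 0.47 on the log2 scale. Their sum was 17.3 to 20.3 on normal and 18.6 to 24.7 on NcstnΔKC arrays. The endothelial miR-126a-3p differed by 0.15 (limma adjusted p = 0.392).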

How the data were processed

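Total RNA of 8 skin samples was labelled with Cy3 and hybridised to 1-colour Agilent miRNA arrays. Per the file headers, Feature Extraction 10.7.1.1 gave the spot intensities, with a fitted background subtracted and no normalization between arrays. The authors also deposited log2 values of the same arrays in the series matrix, whose column medians were 3.24 to 3.25; their normalization and centring are not given in the sources used here. Control spots and outlier spots were left out. Each probe's mean intensity was divided by the 75th percentile over the 301 probes detected on all 8 arrays (50% of spots well above background), summed per miRNA, floored at log2 -4.97 and put on the log2 scale; no member was at the floor. A miRNA had to be detected throughout a group (4 of 4 arrays) in either group, which left 222, and these were tested with limma 3.58.1 in R 4.3.3 (group alone, eBayes, Benjamini-Hochberg over 222, threshold 0.05). Ratios were compared by exact two-sided permutation, adjusted over 6 pairs. On simulated data for this comparison (222 miRNAs, 60 of them changed), limma recovered 69.9% of 2-fold and 30.8% of 1.5-fold changes. These are averages over miRNAs of differing spread, among which a difference of that smaller size is often missed. Recovery for the members alone was not simulated. The named miRNAs were the 5 members, the listed epithelial and cell type miRNAs and the 3 miRNAs most like each member; members and lists were chosen with earlier results of these data known. Alternatives were other scalings, background corrections, probe summaries and filters, array weights, the replicate block, the series matrix values and leaving out each array; the ratios within a cluster were added after seeing the data. The number of arrays limits the precision. Mature miRNA and promoter sequences are from RefSeq (GRCm38.p6), which held all 5 members.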

Additional observations from a re-analysis of the deposited data

Results flagged for a closer look

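The mean of the chromosome 4 members minus that of the chromosome 6 members stood apart in normal 4, at 0.36 relative to the normal mean, where the next normal array was at -0.08. It was picked out because its gap to the others was large for a group of 4 arrays, a check that marks about 5% of groups by chance and was run on 24 groups of values. Normal 4 had the highest levels of miR-200a-3p, miR-200b-3p and miR-429-3p and the lowest level of miR-141-3p among the normal arrays. Without normal 4 the difference between groups was -0.80, against -0.92 with it.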

How the results depend on the processing

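Of 12 alternatives run on the ratios between the clusters, 5 (the percentile over all probes, no scaling, spike-in scaling, the floor 2 times as high and the scanner software's totals) returned the same values and say nothing about stability. In the other 7 the 6 ratios and their mean difference (-1.01 to -0.78) kept their direction. With each array left out, the mean difference ran from -0.98 to -0.80, and the ratios from -0.96 to -0.77 (miR-200a-3p over miR-200c-3p), -1.16 to -0.83 (miR-200a-3p over miR-141-3p), -0.79 to -0.65 (miR-200b-3p over miR-200c-3p), -0.99 to -0.71 (miR-200b-3p over miR-141-3p), -1.01 to -0.89 (miR-429-3p over miR-200c-3p) and -1.22 to -0.95 (miR-429-3p over miR-141-3p); 4 against 3 arrays cannot give an exact permutation p under 0.0571, so these are values with no test. The single members depended on the scaling. With the percentile over all probes, values turned to 0.13 for miR-200a-3p, 0.29 for miR-200b-3p and 0.056 for miR-429-3p, and 0 members passed. miR-200c-3p turned to -0.14 without scaling and -0.19 with spike-in scaling, where miR-141-3p turned to -0.012. miR-141-3p passed in the series matrix values (0.52) and with array weights (0.39, whose estimation stopped before full convergence). With no filter on dim miRNAs, where 1881 are tested, the differences of -0.74, -0.58 and -0.81 of the chromosome 4 members had limma adjusted p of 0.136, 0.139 and 0.0612, and 0 members passed. With the replicate block, 1 member passed: miR-429-3p (-0.81, limma adjusted p = 0.0302) was kept and miR-200a-3p (-0.74, 0.0521) and miR-200b-3p (-0.58, 0.0634) were not. The replicate numbers did not pair the arrays: deviations from group means of same-numbered arrays correlated at -0.44, 0.20, -0.26 and -0.23. With each array left out, 2 or 3 members passed, and the differences ran from -0.90 to -0.73 (miR-429-3p), -0.66 to -0.50 (miR-200b-3p), -0.84 to -0.62 (miR-200a-3p), -0.0030 to 0.25 (miR-200c-3p) and 0.22 to 0.37 (miR-141-3p).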

Other observations

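miR-182-5p, of the miR-183 cluster, followed miR-429-3p among arrays of the same group (r = 0.95 after group means were subtracted) but not over all 8 arrays (r = -0.25). miR-96-5p of that cluster had r of 0.92 with miR-200a-3p after the same step. For miR-200c-3p the closest after group means were subtracted were miR-27b-3p (r = 0.91), miR-92a-3p (0.90) and miR-500-3p (0.89), and for miR-141-3p miR-1949 (0.74), miR-6368 (0.70) and miR-483-5p (0.69). These are the highest of 221 values of r over 8 arrays that share their scaling, and none was tested.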
